A study of Homo sapiens with 12 samples.

Results

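The 39 genes described here encode the core machinery of DNA replication and S phase, together with the cyclin E and E2F genes that govern entry into it. They were taken as a list of symbols and matched by Entrez gene number, and all 39 were found among the 23922 genes of the files, with counts in each of the 12 libraries. The series followed thyroid hormone responses during human hepatocyte development in H9, an established line of human embryonic stem cells that was differentiated along the liver lineage in culture. At day 19, when the cells are called hepatocytes, the groups were 30 nM T4 (thyroxine), 30 nM T3 (triiodothyronine, which lacks 1 of the iodines of T4) and 0.1% DMSO, the vehicle control. The day 7 cells, called hepatoblasts, had the same T4, T3 and DMSO groups. Every group had 2 libraries, all groups come from the H9 line, and neither the time at which hormone was added nor the solvent of the hormone-treated cells is given. Whether the libraries of a group were grown apart is not stated, and the p-values therefore reflect only how these libraries scatter, which may be technical.

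Before S phase, the origin recognition complex (ORC1 and ORC6 among its subunits) works with CDC6 and CDT1 to load the ring of MCM2 to MCM7 on DNA, a step called licensing, and geminin (GMNN) holds CDT1 back once S phase has begun. Loaded rings become active helicases when CDC45 and the GINS complex join them, after which the primase and polymerases copy the strands, the clamp PCNA holds the polymerases in place, and FEN1 and LIG1 finish the Okazaki fragments. Cyclin E with CDK2 promotes S phase entry, and E2F transcription factors, when released from the RB family, switch on many of these genes, so that their transcripts are abundant in dividing cells. Liver progenitors divide, whereas mature hepatocytes of the resting liver rarely do.

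Each library held 18363549 to 19306181 expected counts, the reads or fragments that RSEM assigned to transcripts, and 18101 genes passed the filter on low counts, including all 39 replication genes. Per-library levels below are CPM (counts scaled to a common library size by TMM), and levels set beside each other across genes are FPKM, which also divides by length. The 9 hepatocyte markers summed to 7402 to 8310 CPM in the T4 libraries, 2878 to 3862 CPM in the T3 libraries and 63756 to 67402 CPM in the DMSO libraries of day 19. At day 7 they summed to 4034 to 4108 CPM in T4, 3800 to 3918 CPM in T3 and 5152 to 5182 CPM in DMSO. APOA1, APOB and FGB held most of the day 7 sum, whereas ALB, which encodes albumin, lay at 0.439 to 1.3 CPM and TF, which encodes transferrin, at 0.77 to 1.25 CPM over the 6 libraries of that day. At day 19 ALB had 3.14 and 2.5 CPM with T4, 0.898 and 1.57 CPM with T3 and 17.8 and 20.8 CPM with DMSO, so that this defining hepatocyte marker was near 0 in the T3 libraries. In bulk libraries, fewer cells of a type and less RNA per cell cannot be told apart, and this holds for every result below. The 10 most abundant genes took 6.93% to 6.94% of the counts in the hormone-treated libraries of day 19 and 11.7% and 12.1% in the DMSO libraries of that day, against 5.48% to 5.86% at day 7.

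The replication genes were less abundant at day 19 than at day 7. In DMSO, their levels summed to 979 and 969 CPM at day 19 and to 1830 and 1843 CPM at day 7. Of the 39 genes, 35 were lower at day 19 and 2 were higher by edgeR's quasi-likelihood test at an adjusted p of at most 0.05, whereas 34.9% of all tested genes were lower and 37.6% were higher (72.4% in either direction). The median log2 fold change of the 39 genes was -1.10, beside 0.00 over all tested genes. With T4, 36 were lower and 2 higher (background 36.4% and 35.5%, or 71.9% in either direction), and with T3, 36 were lower and 1 was higher (background 37.9% and 35.2%, or 73.1% in either direction). On the log2(FPKM + 1) scale the share of called genes that were higher at day 19 was 37.3% with T4, 35.3% with T3 and 33.1% in DMSO, in place of 49.4%, 48.1% and 51.9%, and 36 to 37 of the 39 genes were lower. Other cell markers moved between the days as well. In DMSO, 8 of 9 hepatocyte markers and 7 of 7 mesenchymal and stellate markers rose at day 19, and 7 of 8 pluripotent cell markers fell, with a summed level of 217 to 223 CPM at day 19 against 1729 to 1755 CPM at day 7. The part of these markers in the replication gene result was not tested. The heat map of the 39 genes by library shows this as a block of lower values in nearly every row.

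**Figure D1:**
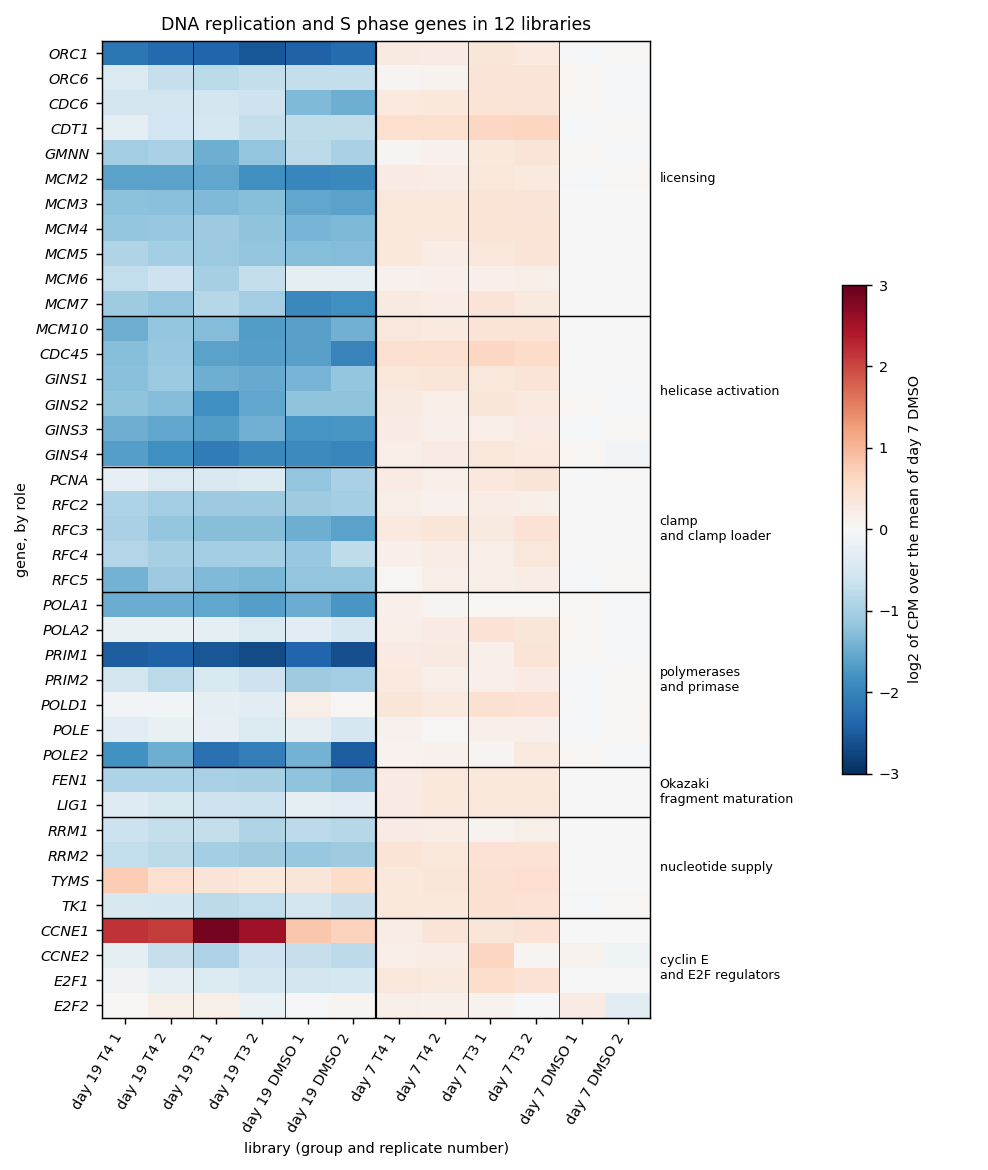
Levels of the 39 replication genes in each of the 12 libraries, as the log2 ratio of a library's CPM to the mean of the DMSO libraries of day 7, with genes in rows by role and libraries in columns by group. Most rows are lower in the 6 libraries of day 19 than in the 6 of day 7, and the row of CCNE1 runs the other way.

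Among the licensing genes, all 11 fell at day 19 in DMSO. ORC1, the subunit of the origin recognition complex whose amount follows the cell cycle, was at 5.09 and 5.53 CPM in the DMSO libraries of day 19, against 26.6 and 28.1 CPM in those of day 7. MCM2, a subunit of the replicative helicase ring, had 21.3 and 21.7 CPM at day 19 and 80.03 and 85.7 CPM at day 7. The days did not overlap for either gene, with a log2 fold change of -2.36 for ORC1 (SE 0.0994, edgeR adjusted p = 2.4e-11) and of -1.95 for MCM2 (SE 0.0787, edgeR adjusted p = 1.53e-11). CDC6, which helps to load the ring, had 11.8 and 10.7 CPM at day 19 and 30.6 and 28.8 CPM at day 7, a log2 fold change of -1.40 (SE 0.0793, edgeR adjusted p = 6.49e-10). The other loader, CDT1, fell by less, with 25.8 and 25.9 CPM at day 19 against 42.7 and 44.7 CPM at day 7 and a log2 fold change of -0.76 (SE 0.0871, edgeR adjusted p = 1.77e-06). Its inhibitor GMNN had 16.4 and 14.8 CPM at day 19 and 29.7 and 27.99 CPM at day 7, a log2 fold change of -0.89 (SE 0.0898, edgeR adjusted p = 4.39e-07). The 6 ring subunits fell unequally. MCM6 (chr2:135839626-135876443) was the least changed at -0.29 (edgeR adjusted p = 0.00211), and the other 5 lay between -1.30 for MCM5 and -1.95 for MCM2.

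Downstream of licensing, all 6 helicase activation genes and all 5 genes of the clamp and clamp loader fell, as did 6 of 7 genes of the polymerases and primase. PRIM1 (chr12:56731580-56752323, GRCh38), the catalytic subunit of the primase, had the largest fall of the 39 genes, with 3.82 and 3.16 CPM in the DMSO libraries of day 19 against 20.03 and 19.4 CPM in those of day 7 (log2 fold change -2.50, SE 0.132, edgeR adjusted p = 2.94e-10). The sliding clamp PCNA had 36.1 and 41.9 CPM at day 19 and 83.4 and 81.7 CPM at day 7 (log2 fold change -1.08, SE 0.0784, edgeR adjusted p = 1.02e-08). In contrast to the primase, POLE, the catalytic subunit of the leading strand polymerase, had a log2 fold change of only -0.39 (edgeR adjusted p = 0.000788). With T4 and with T3, PRIM1, ORC1 and GINS4, a subunit of the GINS complex, fell between the days, at -2.71 (edgeR adjusted p = 7.93e-11), -2.51 (edgeR adjusted p = 7.69e-12) and -1.97 (edgeR adjusted p = 1.18e-10) with T4 and at -2.90 (edgeR adjusted p = 4.28e-11), -2.78 (edgeR adjusted p = 3.06e-12) and -2.32 (edgeR adjusted p = 2.45e-11) with T3. POLD1, the catalytic subunit of the lagging strand polymerase, had 84.3 and 76.3 CPM at day 19 and 72.1 and 76.9 CPM at day 7, values that overlapped, with a log2 fold change of 0.11 (95% interval -0.03 to 0.24, edgeR adjusted p = 0.131). That value is on the TMM scale, and on the log2(FPKM + 1) scale, where the median of all genes itself stood at -0.24, POLD1 was called lower at day 19, at -0.28 (limma adjusted p = 0.000855).

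In nucleotide supply, RRM2, the regulatory subunit of ribonucleotide reductase, was at 25.7 and 26.96 CPM in DMSO at day 19 against 55.95 and 57.4 CPM at day 7 (log2 fold change -1.10, SE 0.063, edgeR adjusted p = 6.96e-10). TK1, the thymidine kinase of the cytosol, had 27.6 and 25.02 CPM at day 19 and 38.9 and 42.3 CPM at day 7 (log2 fold change -0.62, SE 0.0707, edgeR adjusted p = 1.44e-06). TYMS, the thymidylate synthase, did the opposite, with 74.8 and 84.7 CPM at day 19 against 58.4 and 57.4 CPM at day 7 (log2 fold change 0.46, SE 0.0832, edgeR adjusted p = 0.000157), and the days did not overlap. Its rise rested on the scale, since it was 0.06 on the log2(FPKM + 1) scale (limma adjusted p = 0.530). ENOSF1 overlaps TYMS on the opposite strand and the strand of counting is not given, so reads of the 2 genes could not be separated with certainty.

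CCNE1 (chr19:29811991-29824312), which encodes cyclin E1, was the other gene that rose. It had 47.9 and 44.6 CPM in the DMSO libraries of day 19 and 27.5 and 27.4 CPM in those of day 7 (log2 fold change 0.75, SE 0.105, edgeR adjusted p = 1.26e-05), without overlap. Between the days it rose further in the hormone-treated cells, by 1.81 (SE 0.097, edgeR adjusted p = 3.27e-10) with T4 and 2.32 (SE 0.096, edgeR adjusted p = 1.66e-11) with T3. CCNE2, which encodes cyclin E2, was rare at 1.82 and 1.70 CPM at day 19 and 3.18 and 2.69 CPM at day 7, and fell, with a log2 fold change of -0.74 (SE 0.252, edgeR adjusted p = 0.0165). That call was lost with DESeq2, without the first DMSO library of day 7 or without the second of day 19, with adjusted p-values of up to 0.103 over all alternatives. E2F1, an activator of replication genes, had 14.5 and 14.8 CPM at day 19 and 21.5 and 21.3 CPM at day 7 (log2 fold change -0.54, SE 0.0862, edgeR adjusted p = 4.55e-05). Its relative E2F2 had 4.42 and 4.86 CPM at day 19 and 5.49 and 3.70 CPM at day 7, which overlapped, and its log2 fold change was 0.01 (95% interval -0.40 to 0.43).

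Per length, the order of the genes changed with the day. PCNA led the 39 genes in the DMSO cells of day 7 at 71.3 ± 0.962 FPKM (SD, n = 2), followed by MCM7 at 63.8 ± 1.07 FPKM, MCM3 at 52.1 ± 1.17 FPKM and TYMS at 41.02 ± 0.403 FPKM, and these 4 lay farther apart than the spread of their libraries. At day 19 in DMSO, TYMS led at 42.8 ± 3.7 FPKM, and PCNA at 25.5 ± 2.61, CCNE1 at 20.3 ± 0.912 and POLD1 at 19.7 ± 1.37 FPKM followed, the last 2 within a spread of each other. In T3-treated cells of day 19 the order was led by CCNE1 at 83.6 ± 12.3 FPKM, and so it was with T4 at 58.5 ± 2.05 FPKM, although TYMS at 52.8 ± 6.71 FPKM lay within its own spread of that value. CCNE2 and E2F2 were the 2 rarest of the 39 in every group, at 0.555 to 1.53 FPKM.

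Many replication genes were higher with hormone at day 7. Their levels summed to 2210 and 2188 CPM with T4 and 2320 and 2323 CPM with T3, against 1830 and 1843 CPM with DMSO. With T4, 18 of the 39 rose and 0 fell, where 3.9% of all tested genes rose and 2.52% fell (6.42% in either direction). With T3, 27 rose and 0 fell, where 9.43% of all genes rose and 6.54% fell (16% in either direction). All 39 fitted values lay above 0 with each hormone. Their median log2 fold change was 0.24 with T4 and 0.35 with T3, while that of all tested genes was 0.01 with each. The changes were small, from 0.08 to 0.49 with T4 and from 0.06 to 0.63 with T3, and both comparisons share the DMSO libraries, so they are not independent of each other. Values of all 39 genes with their intervals are drawn in the plot of day 7 effects.

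**Figure D2:**
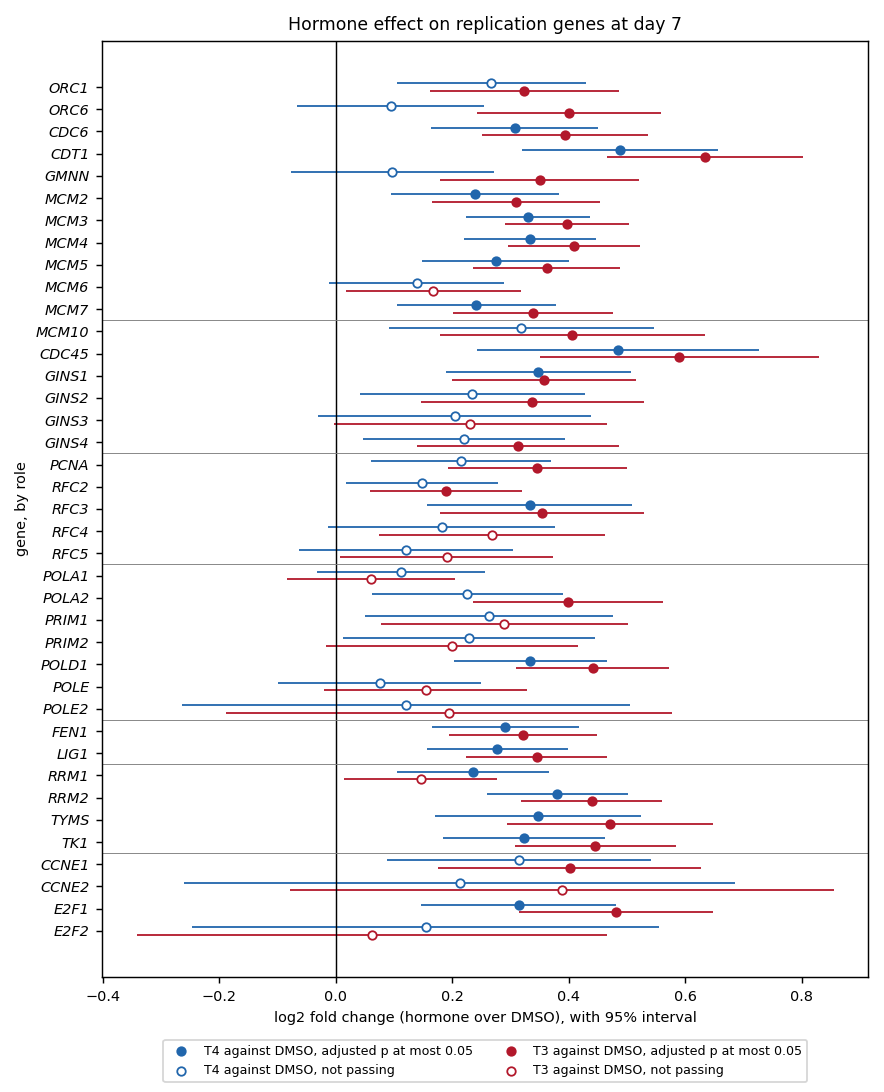
Log2 fold change of each replication gene at day 7 for T4 against DMSO (blue) and T3 against DMSO (red), with 95% intervals, in rows by role. Filled points passed edgeR's test at an adjusted p of at most 0.05 (18 genes with T4, 27 with T3), and all points lie to the right of 0.

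Among the licensing genes, 7 of 11 rose after T4 at day 7 and 10 of 11 after T3. CDT1 had 61.8 and 60.7 CPM with T4 and 66.99 and 68.5 CPM with T3, against 42.7 and 44.7 CPM with DMSO. Both hormone groups lay above DMSO without overlap, and the change was the largest of the 39 genes for each hormone, at 0.49 (SE 0.0787, edgeR adjusted p = 0.00187) with T4 and 0.63 (SE 0.0783, edgeR adjusted p = 8.39e-05) with T3. CDC6 stood at 36.5 and 37.02 CPM with T4 and 39.2 and 38.8 CPM with T3, against 30.6 and 28.8 CPM with DMSO. Its log2 fold change was 0.31 (SE 0.0667, edgeR adjusted p = 0.0127) for T4 and 0.39 (SE 0.0664, edgeR adjusted p = 0.00107) for T3. MCM2 had 98.5 and 97.1 CPM with T4, 104 and 101 CPM with T3 and 80.03 and 85.7 CPM with DMSO. It rose by 0.24 (SE 0.0672, edgeR adjusted p = 0.0491) with T4 and by 0.31 (SE 0.0671, edgeR adjusted p = 0.00614) with T3. MCM7 had 206 and 200.2 CPM with T4, 223 and 211 CPM with T3 and 170.0 and 174 CPM with DMSO, and rose without overlap, by 0.24 (SE 0.0639, edgeR adjusted p = 0.0371) with T4 and 0.34 (SE 0.0638, edgeR adjusted p = 0.0024) with T3. MCM3, MCM4 and MCM5 were also called with each hormone, at 0.27 to 0.33 with T4 and 0.36 to 0.41 with T3. MCM6 alone of the 6 was not called with either, at 0.14 (edgeR adjusted p = 0.285) with T4 and 0.17 (edgeR adjusted p = 0.126) with T3. GMNN had 30.4 and 31.4 CPM with T4, 36.1 and 37.4 CPM with T3 and 29.7 and 27.99 CPM with DMSO. It was not called with T4, at 0.10 (SE 0.081, edgeR adjusted p = 0.555), and rose with T3, at 0.35 (SE 0.0799, edgeR adjusted p = 0.00847). Its T4 libraries lay narrowly above DMSO and its T3 libraries farther above. ORC1 and ORC6 passed with T3 and not with T4, at 0.27 (edgeR adjusted p = 0.0517) for ORC1 and 0.09 (edgeR adjusted p = 0.532) for ORC6 with T4. However, none of the 39 genes passed the test between the hormones themselves, which is given below.

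In helicase activation, CDC45 had 13.2 and 13.3 CPM with T4 and 14.6 and 13.9 CPM with T3, against 9.34 and 9.62 CPM with DMSO. Its rise was the second largest of the 39 genes for both hormones, at 0.48 (SE 0.113, edgeR adjusted p = 0.0189) with T4 and 0.59 (SE 0.112, edgeR adjusted p = 0.00252) with T3. GINS1, a subunit of the GINS complex, rose with each hormone, at 0.35 (edgeR adjusted p = 0.0113) with T4 and 0.36 (edgeR adjusted p = 0.00451) with T3, whereas GINS2, GINS4 and MCM10, a factor that helps helicases to fire, passed with T3 and not with T4, and GINS3 passed with neither. GINS4 had 29.7 and 30.9 CPM with T4, 32.98 and 31.7 CPM with T3 and 27.3 and 24.8 CPM with DMSO, without overlap, at 0.22 (SE 0.0809, edgeR adjusted p = 0.132) for T4 and 0.31 (SE 0.0805, edgeR adjusted p = 0.0167) for T3. PCNA had 98.4 and 93.3 CPM with T4, 103 and 107 CPM with T3 and 83.4 and 81.7 CPM with DMSO. All hormone libraries lay above DMSO, and the change did not pass with T4, at 0.22 (SE 0.0721, edgeR adjusted p = 0.0974), and passed with T3, at 0.35 (SE 0.0718, edgeR adjusted p = 0.00464). Of its loader, RFC3 rose with each hormone, at 0.33 (edgeR adjusted p = 0.0258) with T4 and 0.35 (edgeR adjusted p = 0.00902) with T3. RFC2 had 46.1 and 44.3 CPM with T4, 47.3 and 45.7 CPM with T3 and 40.3 and 41.4 CPM with DMSO, without overlap. It had the smallest called change with T3, 0.19 (SE 0.0609, edgeR adjusted p = 0.0487), and was not called with T4, at 0.15 (SE 0.0611, edgeR adjusted p = 0.182), and RFC4 and RFC5 were not called with either. The RFC2 call was lost in 10 of 13 alternatives, including RLE size factors, DESeq2, no filter on low counts, the replicate block, limma on both log2 FPKM scales and each library left out, at an adjusted p of up to 0.299. With T3 the MCM10 call was lost in 7 of 13, and those of GINS2 and GINS4 in 6 of 13 each, DESeq2 among them for all 3 genes.

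Of 7 polymerase and primase genes, 1 rose with T4 and 2 with T3. POLD1 was called with each hormone, at 0.33 (edgeR adjusted p = 0.0044) with T4 and 0.44 (edgeR adjusted p = 0.000218) with T3, and POLA2, the accessory subunit of polymerase alpha, with T3. POLA1, its catalytic subunit, was at 0.11 (95% interval -0.03 to 0.26) with T4 and 0.06 (95% interval -0.08 to 0.20) with T3. PRIM1, PRIM2, POLE and POLE2 did not pass with either hormone, at 0.08 to 0.26 with T4 and 0.15 to 0.29 with T3. FEN1, the nuclease that trims Okazaki fragments, and LIG1, the ligase that joins them, both rose with each hormone, at 0.28 to 0.34.

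All 4 nucleotide supply genes rose with T4 and 3 of 4 with T3. RRM2 had 75.4 and 72.1 CPM with T4, 76.6 and 76.995 CPM with T3 and 55.95 and 57.4 CPM with DMSO. Its change was 0.38 (SE 0.0564, edgeR adjusted p = 0.00107) for T4 and 0.44 (SE 0.0562, edgeR adjusted p = 0.000114) for T3. RRM1, the catalytic subunit, had 97.5 and 97.05 CPM with T4, 89.3 and 93.5 CPM with T3 and 83.4 and 81.9 CPM with DMSO. It passed with T4, at 0.24 (SE 0.0611, edgeR adjusted p = 0.0337), and not with T3, at 0.15 (SE 0.0613, edgeR adjusted p = 0.127). TYMS had 72.3 and 75.1 CPM with T4, 79.1 and 81.5 CPM with T3 and 58.4 and 57.4 CPM with DMSO. It rose by 0.35 (SE 0.0825, edgeR adjusted p = 0.0211) with T4 and by 0.47 (SE 0.0822, edgeR adjusted p = 0.00136) with T3. TK1 was at 50.95 and 50.6 CPM with T4, 55.7 and 54.8 CPM with T3 and 38.9 and 42.3 CPM with DMSO. TK1 rose by 0.32 (SE 0.0649, edgeR adjusted p = 0.00821) with T4 and by 0.45 (SE 0.0646, edgeR adjusted p = 0.000324) with T3. For all 4 genes the hormone libraries lay above the DMSO libraries without overlap. With 2 libraries a group, a lack of overlap is a weak mark, here and for the other genes. Between T4 and T3 at day 7, 26 of the 39 genes did not overlap, although 0 passed the test. The share of all tested genes without overlap was not counted.

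E2F1 had 26.98 and 26.1 CPM with T4 and 30.6 and 29.01 CPM with T3, against 21.5 and 21.3 CPM with DMSO. It rose without overlap, by 0.31 (SE 0.0784, edgeR adjusted p = 0.0277) with T4 and by 0.48 (SE 0.0776, edgeR adjusted p = 0.000779) with T3. CCNE1 had 32.2 and 35.99 CPM with T4, 35.4 and 37.1 CPM with T3 and 27.5 and 27.4 CPM with DMSO. It was not called with T4, at 0.31 (SE 0.106, edgeR adjusted p = 0.0986), and was called with T3, at 0.40 (SE 0.105, edgeR adjusted p = 0.0183). CCNE2 had 3.39 and 3.41 CPM with T4, 4.56 and 3.13 CPM with T3 and 3.18 and 2.69 CPM with DMSO, and was not called, at 0.21 (SE 0.221, edgeR adjusted p = 0.653) with T4 and 0.39 (SE 0.217, edgeR adjusted p = 0.261) with T3. E2F2 had 5.16 and 5.07 CPM with T4, 4.95 and 4.65 CPM with T3 and 5.49 and 3.70 CPM with DMSO, values that overlapped, at 0.15 (SE 0.187, edgeR adjusted p = 0.709) with T4 and 0.06 (SE 0.188, edgeR adjusted p = 0.87) with T3.

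The day 7 counts rested on the number of libraries. With T4, the 18 called genes became 4 without the first DMSO library and 6 without the second DMSO library or without either T4 library, and CDT1, MCM3, MCM4 and RRM2 were called under every alternative tried. The T4 call of MCM2 was lost in 10 of 13 alternatives, at an adjusted p of up to 0.348, and those of RFC3 and RRM1 in 7 of 13 each. With T3, 27 became 18 without the second DMSO library, 20 without the first, 21 without the first T3 library and 19 without the second, and 16 genes were called under every alternative. Besides those given above, the T3 calls of ORC1, GMNN, MCM2, GINS1, PCNA, RFC3 and CCNE1 were each lost under some alternative. Markers of pluripotent cells moved with hormone at day 7: 7 of 8 rose with each hormone, and their summed level was 2587 to 2615 CPM with T4, 3099 to 3132 CPM with T3 and 1729 to 1755 CPM with DMSO. Markers of the definitive endoderm summed to 270 to 279 CPM with T4, 233 to 246 CPM with T3 and 365 to 369 CPM with DMSO, and 3 of 5 fell with each hormone. Endothelial markers summed to 42.1 to 43.2 CPM with T4, 40.8 to 43.0 CPM with T3 and 72.5 to 72.6 CPM with DMSO, and 4 of 4 fell with each hormone. Of 4 cholangiocyte markers and 3 neural markers, 1 of each list rose and 0 fell with each hormone at day 7. The part of these markers in the day 7 result was not tested.

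T4 and T3, which differ by 1 iodine on the outer ring, were compared at matched dose on each day, as 1 pair of compounds with p-values adjusted over all genes. At day 7, 0 of the 39 genes passed the test between T4 and T3, by edgeR or by DESeq2, against a background of 0.0387% of genes higher and 0.326% lower (0.365% in either direction), and 4 had an unadjusted p under 0.05 by edgeR and 2 by DESeq2. The fitted value lay below 0 for 35 of the 39 genes and above 0 for 4, with a median log2 difference of -0.08. The lowest was ORC6, at 44.6 and 45.7 CPM with T4 and 55.6 and 56.1 CPM with T3. These libraries did not overlap, and the log2 difference was -0.31 (95% interval -0.46 to -0.15, edgeR adjusted p = 0.129). Among the genes with the widest response, the 95% interval of the difference was -0.31 to 0.02 for CDT1, -0.33 to -0.00 for E2F1 and -0.18 to 0.06 for RRM2, intervals that are not adjusted for the number of genes tested. The test does not show that T4 and T3 act alike. When only the day 7 libraries were fitted, 2 of the 39 genes were called lower with T4.

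Upstream sequences are shown here for some of the genes whose promoters hold the E2F motif. The part of E2F in the changes of these genes was not tested. RefSeq promoters on GRCh38.p14 were matched for 35 of the 39 genes. The 250 bases before the start were searched on both strands for the E2F words TTTCCCGC, TTTGGCGC, TTTCGCGC and TTTGCCGC, which can overlap each other, and 14 of the 35 promoters (40.0%) held at least 1, against 761 of all 27305 promoters (2.79%). The CCAAT box, written CCAAT, was in 18 of the 35 (51.4%) and in 33.0% of all promoters. The hexamer AGGTCA, which thyroid hormone receptors and other nuclear receptors bind, was in 3 of the 35 (8.57%) and in 12.1% of all. TTTGAA, the cell cycle genes homology region (CHR), was in 1 of 35 (2.86%) and in 13.6% of all.

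The 120 bases before the start of MCM6, PCNA and E2F1 follow, 5′ to 3′ on the strand of each gene, with E2F words in capitals on either strand. MCM6 (chr2:135876444-135876563, minus strand) is the ring gene that did not pass at day 7, PCNA (chr20:5126623-5126742, minus strand) is the clamp gene and E2F1 (chr20:33686386-33686505, minus strand) encodes the factor itself.
MCM6: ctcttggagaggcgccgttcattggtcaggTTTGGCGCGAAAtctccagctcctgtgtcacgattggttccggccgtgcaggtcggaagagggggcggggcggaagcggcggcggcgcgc
PCNA: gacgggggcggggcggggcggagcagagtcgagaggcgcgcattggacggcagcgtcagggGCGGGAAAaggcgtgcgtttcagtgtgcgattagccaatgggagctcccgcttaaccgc
E2F1: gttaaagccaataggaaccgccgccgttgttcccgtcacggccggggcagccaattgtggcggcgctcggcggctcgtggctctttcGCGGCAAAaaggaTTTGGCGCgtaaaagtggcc
The run of capitals in MCM6 holds 2 words that overlap on opposite strands. Over the 250 bases the MCM6 promoter had 4 words, which form 2 such overlapping pairs. MCM7 and E2F1 each had 2 words, which do not overlap. Short stretches around a word are given for MCM7 (chr7:100101398-100101427, minus strand), CDT1 (chr16:88803743-88803772, plus strand) and TYMS (chr18:657603-657632, plus strand).
MCM7: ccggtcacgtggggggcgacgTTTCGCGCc
CDT1: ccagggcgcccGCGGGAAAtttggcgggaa
TYMS: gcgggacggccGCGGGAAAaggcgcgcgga
CCNE1 had none of these words in its 250 bases. A word is a description of sequence and the files hold no measure of binding.

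At day 19 the hormone response was split among the replication genes. With T4, 15 of the 39 rose and 2 fell, where 21% of all tested genes rose and 21.9% fell (42.8% in either direction). With T3, 9 rose and 5 fell, where 25.1% of all genes rose and 27.3% fell (52.3% in either direction). The counts for T3 were thus not above those of all genes. Their median log2 fold change was 0.20 with T4 and 0.00 with T3, beside 0.00 and -0.03 over all tested genes. The summed level was nevertheless higher, at 1209 and 1154 CPM with T4 and 1192 and 1114 CPM with T3 against 979 and 969 CPM with DMSO, of which CCNE1 alone made up 122 and 117 CPM with T4 and 202 and 159 CPM with T3, against 47.9 and 44.6 CPM with DMSO. Both hormone comparisons again share their DMSO libraries, and the plot of day 19 effects shows genes on either side of 0.

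**Figure D3:**
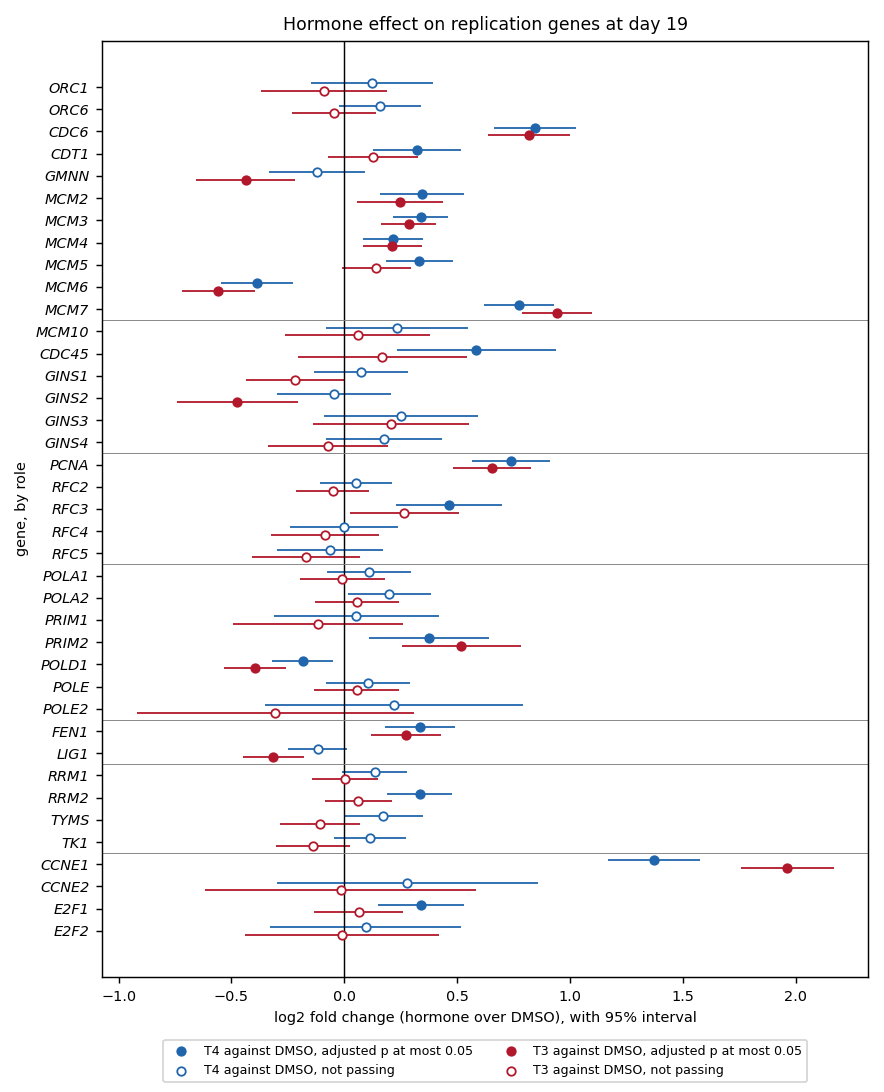
Log2 fold change of each replication gene at day 19 for T4 against DMSO (blue) and T3 against DMSO (red), with 95% intervals, in rows by role. CCNE1 lies far to the right at 1.37 with T4 and 1.96 with T3, and MCM6 lies left of 0 with both hormones.

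CCNE1 had the largest change by far. It had 122 and 117 CPM in the T4 libraries and 202 and 159 CPM in the T3 libraries, against 47.9 and 44.6 CPM in the DMSO libraries. All 4 hormone libraries lay far above the DMSO libraries. The rise was 2.59-fold with T4 (log2 fold change 1.37, SE 0.0959, edgeR adjusted p = 3.53e-08) and 3.9-fold with T3 (log2 fold change 1.96, SE 0.0953, edgeR adjusted p = 3.72e-10). CCNE2 did not share it, with 2.45 and 1.82 CPM with T4, 1.56 and 1.92 CPM with T3 and 1.82 and 1.70 CPM with DMSO. The T4 libraries lay narrowly above DMSO and the T3 libraries overlapped it, at a log2 fold change of 0.28 (SE 0.269, edgeR adjusted p = 0.436) with T4 and -0.02 (SE 0.28, edgeR adjusted p = 0.973) with T3. E2F1 had 19.7 and 17.3 CPM with T4, 15.8 and 14.8 CPM with T3 and 14.5 and 14.8 CPM with DMSO. It rose with T4, at 0.34 (SE 0.0891, edgeR adjusted p = 0.00642), and was not called with T3, at 0.06 (SE 0.0917, edgeR adjusted p = 0.589). Without the first T4 library its call with T4 was lost (highest adjusted p over the alternatives 0.0835). E2F2 had 4.68 and 5.23 CPM with T4, 5.21 and 4.01 CPM with T3 and 4.42 and 4.86 CPM with DMSO, overlapping values with a log2 fold change of 0.09 (SE 0.197, edgeR adjusted p = 0.737) for T4 and -0.01 (SE 0.2, edgeR adjusted p = 0.974) for T3.

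Of the 11 licensing genes, 7 rose and 1 fell with T4, and 5 rose and 2 fell with T3. MCM7 had 82.6 and 76.1 CPM with T4 and 94.8 and 83.7 CPM with T3, against 45.01 and 47.9 CPM with DMSO. It rose without overlap, by 0.77 (SE 0.0727, edgeR adjusted p = 7.89e-07) with T4 and 0.94 (SE 0.0724, edgeR adjusted p = 4.97e-08) with T3. CDC6 stood at 20.1 and 20.3 CPM with T4, 20.3 and 19.4 CPM with T3 and 11.8 and 10.7 CPM with DMSO, so that its hormone libraries lay far above DMSO. Its log2 fold change was 0.85 (SE 0.0841, edgeR adjusted p = 1.38e-06) for T4 and 0.82 (SE 0.0846, edgeR adjusted p = 1.18e-06) for T3. MCM2 had 27.3 and 27.2 CPM with T4, 27.9 and 23.1 CPM with T3 and 21.3 and 21.7 CPM with DMSO. Its rise of 0.34 (SE 0.0869, edgeR adjusted p = 0.00506) with T4 was called under all alternatives, whereas that with T3, 0.25 (SE 0.088, edgeR adjusted p = 0.0289), was lost in the fit of day 19 alone, without either DMSO library or without the first T3 library, with an adjusted p of up to 0.373. MCM3 rose with each hormone as well, at 0.34 (edgeR adjusted p = 0.000198) with T4 and 0.29 (edgeR adjusted p = 0.000633) with T3, and MCM5 rose with T4 at 0.33 (edgeR adjusted p = 0.00132). MCM4 had 50.4 and 50.9 CPM with T4, 52.7 and 48.5 CPM with T3 and 42.9 and 44.3 CPM with DMSO, all hormone libraries above DMSO, at 0.22 (SE 0.0612, edgeR adjusted p = 0.0103) with T4 and 0.21 (SE 0.0614, edgeR adjusted p = 0.00899) with T3. MCM4 lost its call without the first DMSO library with each hormone, and also without the second T4 library and the first T3 library, at adjusted p-values of up to 0.0606 with T4 and 0.0937 with T3.

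Against the other ring subunits, MCM6 fell. It had 52.7 and 56.6 CPM with T4 and 43.9 and 53.1 CPM with T3, against 71.2 and 71.7 CPM with DMSO. All hormone libraries lay below the DMSO libraries, at -0.39 (SE 0.075, edgeR adjusted p = 0.000717) for T4 and -0.56 (SE 0.076, edgeR adjusted p = 2.03e-05) for T3. GMNN had 14.1 and 14.6 CPM with T4, 10.4 and 12.6 CPM with T3 and 16.4 and 14.8 CPM with DMSO. It was not called with T4, at -0.12 (SE 0.099, edgeR adjusted p = 0.352), and fell with T3, at -0.44 (SE 0.103, edgeR adjusted p = 0.00233). Its partner CDT1 had 35.4 and 29.3 CPM with T4, 30.2 and 26.4 CPM with T3 and 25.8 and 25.9 CPM with DMSO. CDT1 rose with T4, at 0.32 (SE 0.0908, edgeR adjusted p = 0.00973), and was not called with T3, at 0.13 (SE 0.0925, edgeR adjusted p = 0.266). Without the first T4 library that call was lost, at an adjusted p of 0.157. CDC45 had 3.88 and 4.32 CPM with T4, 3.11 and 3.03 CPM with T3 and 3.09 and 2.37 CPM with DMSO, and rose with T4, at 0.59 (SE 0.165, edgeR adjusted p = 0.0101), a call lost with DESeq2, in the fit of day 19 alone, and without the second DMSO library or the second T4 library (adjusted p up to 0.154 over the alternatives). ORC1, ORC6 and the helicase activators MCM10, GINS1, GINS3 and GINS4 were not called with either hormone.

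PCNA had 69.3 and 60.9 CPM with T4 and 60.5 and 62.2 CPM with T3, against 36.1 and 41.9 CPM with DMSO. It rose without overlap, by 0.74 (SE 0.0801, edgeR adjusted p = 3.3e-06) with T4 and 0.65 (SE 0.0806, edgeR adjusted p = 7.61e-06) with T3. PCNA-AS1, an antisense transcript, lies across PCNA, and its reads could not be told from those of PCNA with certainty. Of the 4 loader genes, RFC3 rose with T4, at 0.46 (edgeR adjusted p = 0.00317), and the other 3 were called with neither hormone. PRIM2, the large subunit of the primase, rose with T4, at 0.37 (edgeR adjusted p = 0.0244), and with T3, at 0.52 (edgeR adjusted p = 0.00251), whereas PRIM1 was not called. The PRIM2 call with T4 was lost with DESeq2, in the fit of day 19 alone, without either DMSO library or without the first T4 library (adjusted p up to 0.215 over the alternatives). POLA1, POLA2, POLE and POLE2 were not called with either hormone. FEN1 rose with each hormone, at 0.34 (edgeR adjusted p = 0.00154) with T4 and 0.27 (edgeR adjusted p = 0.00543) with T3, and the T3 call was lost without the second DMSO library (adjusted p 0.0575).

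POLD1, LIG1 and GINS2 went the other way with T3. POLD1 had 70.6 and 70.9 CPM with T4 and 61.97 and 60.2 CPM with T3, against 84.3 and 76.3 CPM with DMSO. The hormone libraries lay below the DMSO libraries, and T3 lay lowest, at -0.18 (SE 0.0633, edgeR adjusted p = 0.0299) for T4 and -0.40 (SE 0.0641, edgeR adjusted p = 0.000106) for T3. The T4 call was lost in 7 of 13 alternatives, which were DESeq2, limma on both log2 FPKM scales, the fit of day 19 alone, and leaving out the first DMSO library or either T4 library (adjusted p up to 0.51 over the alternatives). LIG1 had 39.1 and 37.002 CPM with T4, 33.6 and 32.9 CPM with T3 and 41.9 and 40.7 CPM with DMSO. T3 lay below both other groups, at -0.31 (SE 0.0628, edgeR adjusted p = 0.000672), and T4 was not called, at -0.12 (SE 0.0617, edgeR adjusted p = 0.141). GINS2 had 8.67 and 8.07 CPM with T4, 5.63 and 6.81 CPM with T3 and 8.60 and 8.68 CPM with DMSO. Its change was -0.47 (SE 0.124, edgeR adjusted p = 0.005) with T3, lost with DESeq2 or without the first T3 library (adjusted p up to 0.0653 over the alternatives), and -0.05 (SE 0.118, edgeR adjusted p = 0.791) with T4. GSE1, an abundant neighbour, overlaps GINS2.

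In nucleotide supply, RRM2 alone was called at day 19. RRM2 had 34.1 and 32.3 CPM with T4, 27.9 and 27.2 CPM with T3 and 25.7 and 26.96 CPM with DMSO. The T4 libraries lay above all others, at 0.33 (SE 0.0667, edgeR adjusted p = 0.000903), and T3 gave 0.06 (SE 0.0684, edgeR adjusted p = 0.469). TYMS had 98.3 and 81.5 CPM with T4, 75.7 and 72.2 CPM with T3 and 74.8 and 84.7 CPM with DMSO. Its groups overlapped, at 0.17 (SE 0.0818, edgeR adjusted p = 0.107) for T4 and -0.11 (SE 0.0829, edgeR adjusted p = 0.297) for T3. TK1 had 28.99 and 28.02 CPM with T4, 23.5 and 24.3 CPM with T3 and 27.6 and 25.02 CPM with DMSO. Neither change was called, at 0.11 (SE 0.0742, edgeR adjusted p = 0.236) with T4 and -0.14 (SE 0.0761, edgeR adjusted p = 0.143) with T3.

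**Figure D4:**
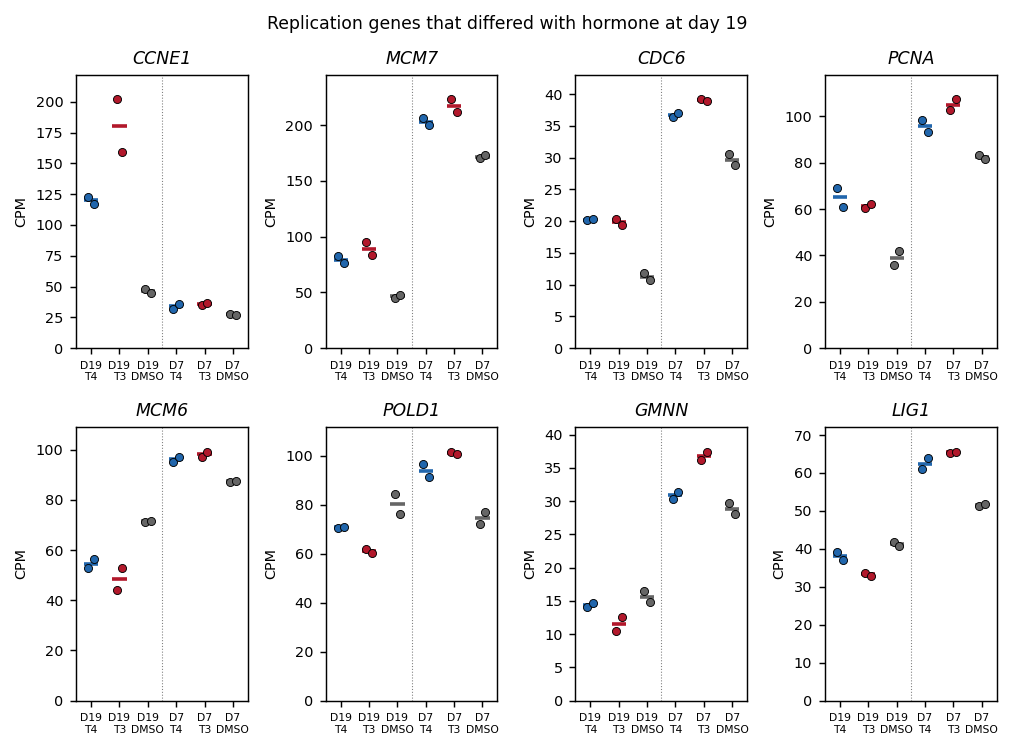
CPM of 8 replication genes in each library (points), with the group mean as a bar, for the T4, T3 and DMSO groups of day 19 on the left and of day 7 on the right of each panel. CCNE1, MCM7, CDC6 and PCNA lie above DMSO with both hormones at day 19, MCM6 and POLD1 lie below it, and GMNN and LIG1 lie lowest with T3.

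Hepatocyte markers moved with hormone at day 19, as given above, and all 9 fell with T4 and with T3. Mesenchymal and stellate cell markers summed to 3176 to 3600 CPM with T4, 2223 to 3055 CPM with T3 and 6189 to 6453 CPM with DMSO, and of 7 tested 5 fell and 1 rose with T4, and 6 fell and 1 rose with T3. Intestinal markers summed to 235 to 263 CPM with T4, 174 to 209 CPM with T3 and 635 to 641 CPM with DMSO, and all 4 fell with each hormone. Pluripotent cell markers summed to 281 to 285 CPM with T4, 283 to 298 CPM with T3 and 217 to 223 CPM with DMSO, and of 8, 5 rose with T4 and 4 with T3. Definitive endoderm markers summed to 116 to 122 CPM with T4, 91.9 to 111 CPM with T3 and 177 to 181 CPM with DMSO, and of 5, 2 fell with T4 and 4 with T3. Endothelial markers summed to 101 to 123 CPM with T4, 115 to 117 CPM with T3 and 93.6 to 106 CPM with DMSO, and of 4, 1 rose and 2 fell with T4 and 1 rose and 3 fell with T3. Of 4 cholangiocyte markers and 3 neural markers, 1 of each list rose and 1 fell with each hormone. The median log2 fold change of the cholangiocyte markers was 0.13 with T4 and 0.20 with T3. For the neural markers it was -0.39 with T4 and -0.69 with T3. The cholangiocyte marker that rose was KRT7, a keratin of bile duct cells, by 1.43 (edgeR adjusted p = 4.82e-10) with T4 and 1.60 (edgeR adjusted p = 6.05e-11) with T3. The neural marker that rose was TUBB3, a neuronal tubulin, by 1.56 (edgeR adjusted p = 9.54e-10) with T4 and 1.98 (edgeR adjusted p = 3.39e-11) with T3. The part of these marker differences in the replication gene result was not tested. On the log2(FPKM + 1) scale, where the median of all genes with T4 was 0.08 and 66.6% of called genes were higher in place of 48.9%, limma called 22 replication genes higher and 1 lower with T4.

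Between T4 and T3 at day 19, 7 of the 39 genes were higher with T4 and 1 was lower, where 7.42% of all tested genes were higher and 8.31% lower (15.7% in either direction). The fitted value lay above 0 for 36 of the 39, with a median log2 difference of 0.17 beside 0.01 over all genes. On the log2(FPKM + 1) scale 62.8% of all called genes were higher with T4 in place of 47.2%, and 10 of the 39 were higher and 1 lower. With RLE size factors 2 of the 39 were higher and 1 lower, and with DESeq2 or in the fit of day 19 alone 0 were higher and 1 was lower, with 13, 6 and 9 at an unadjusted p under 0.05. CCNE1, whose values are above, was lower with T4 than with T3 by a log2 difference of -0.59 (95% interval -0.78 to -0.40, edgeR adjusted p = 0.000442) and was called under every alternative. The 7 that were higher were GINS2, at 0.43 (SE 0.124, edgeR adjusted p = 0.0305), TYMS, at 0.28 (SE 0.0821, edgeR adjusted p = 0.0319), E2F1, at 0.28 (SE 0.0882, edgeR adjusted p = 0.0483), RRM2, at 0.27 (SE 0.0661, edgeR adjusted p = 0.0124), and TK1, POLD1 and LIG1, at 0.20 to 0.25. Each of these 7 lost its call under some alternative. Leaving out any 1 library dropped several of these calls. Without the second library of either hormone, other replication genes were called in their place. For MCM7, CDC6 and PCNA the 95% interval of the T4 to T3 difference was -0.32 to -0.02, -0.14 to 0.19 and -0.08 to 0.25, and for MCM6 it was 0.01 to 0.34. These 4 did not pass the test, which does not show that T4 and T3 act alike on them, and the intervals are not adjusted for the number of genes.

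The unequal changes of the ring genes can be read as shares of their transcripts. MCM2 to MCM7 proteins enter the ring in equal numbers, and here only the transcripts were measured. At day 19, MCM7 took 29.0% and 27.4% of the summed FPKM of the 6 ring genes with T4, 33.6% and 30.8% with T3 and 19.6% and 20.6% with DMSO. MCM6 took 14.7% and 16.2% with T4, 12.4% and 15.6% with T3 and 24.7% and 24.6% with DMSO. At day 7, MCM7 had 27.7% to 28.6% and MCM6 9.93% to 11.5% over all 6 libraries. The ratio of MCM7 to MCM6 in FPKM was 1.97 and 1.69 with T4, 2.71 and 1.98 with T3 and 0.794 and 0.838 with DMSO at day 19, and 2.45 to 2.88 at day 7. Hormone-treated libraries of day 19 thus lay above the DMSO libraries of that day in this ratio, without overlap. MCM7 overlaps AP4M1, and 3 miRNA genes lie in its introns.

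The ratio of CCNE1 to CCNE2 was likewise higher with hormone, at 71.3 and 91.95 with T4 and 181 and 117 with T3 at day 19, against 36.7 and 36.3 with DMSO. CCNE2 sits near the bottom of the range, with 26 to 93 counts per library, and overlaps INTS8, so this ratio is imprecise. CDT1 to GMNN stood at 1.12 and 0.888 with T4, 1.29 and 0.920 with T3 and 0.704 and 0.779 with DMSO at day 19, and at 0.856 to 0.911 with T4, 0.809 to 0.819 with T3 and 0.629 to 0.709 with DMSO at day 7. It lay above DMSO with both hormones on each day, with no overlap. These ratios were not tested.

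Whether the hormone effect differed between the days was tested as an interaction. For T4, 4 of the 39 genes had a higher effect at day 19 than at day 7 and 3 a lower one, where 12.4% of all tested genes were higher and 15.3% lower (27.7% in either direction). For T3, 4 were higher and 14 lower, where 17.1% were higher and 20.9% lower (38% in either direction). The T4 counts, and the count of higher T3 effects, were thus not above those of all genes. On the log2(FPKM + 1) scale the share of all called genes with a higher effect at day 19 was 67.2% for T4 and 57.8% for T3, in place of 44.8% and 45.0%. The same 4 genes, CCNE1, MCM7, CDC6 and PCNA, were higher with each hormone. CCNE1 had a T4 effect of 1.37 at day 19 and 0.31 at day 7, a difference of 1.06 (SE 0.143, edgeR adjusted p = 7.73e-05), and a T3 effect of 1.96 at day 19 and 0.40 at day 7, a difference of 1.56 (SE 0.142, edgeR adjusted p = 9.15e-07). MCM7 differed by 0.53 (SE 0.0968, edgeR adjusted p = 0.000879) for T4 and 0.60 (SE 0.0965, edgeR adjusted p = 0.000177) for T3, and CDC6 by 0.54 (SE 0.108, edgeR adjusted p = 0.00179) for T4 and 0.43 (SE 0.108, edgeR adjusted p = 0.00592) for T3. PCNA differed by 0.52 (SE 0.108, edgeR adjusted p = 0.00221) for T4 and 0.31 (SE 0.108, edgeR adjusted p = 0.0366) for T3, and its T3 term was lost with no filter on low counts, without the first DMSO library of day 19, without the second T3 library of day 19 or without any of the DMSO and T3 libraries of day 7 (adjusted p up to 0.169).

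Those with a lower effect at day 19 under T4 were MCM6, at -0.53 (SE 0.103, edgeR adjusted p = 0.00151), POLD1, at -0.52 (SE 0.088, edgeR adjusted p = 0.000519), and LIG1, at -0.40 (SE 0.0836, edgeR adjusted p = 0.00265). All 3 were also lower under T3, at -0.73 (SE 0.103, edgeR adjusted p = 6.37e-05) for MCM6, -0.84 (SE 0.0885, edgeR adjusted p = 4.05e-06) for POLD1 and -0.66 (SE 0.0843, edgeR adjusted p = 2.41e-05) for LIG1. With T3, POLD1 thus rose at day 7 and fell at day 19, whereas its fall with T4 at day 19 was lost in 7 of 13 alternatives. The other 11 that were lower under T3 included GINS2, at -0.81 (SE 0.153, edgeR adjusted p = 0.000717), GMNN, at -0.79 (SE 0.13, edgeR adjusted p = 0.000238), TYMS, at -0.58 (SE 0.117, edgeR adjusted p = 0.00119), TK1, at -0.58 (SE 0.0998, edgeR adjusted p = 0.000311), CDT1, at -0.50 (SE 0.121, edgeR adjusted p = 0.0042), RRM2, at -0.38 (SE 0.0886, edgeR adjusted p = 0.0037), and E2F1, at -0.42 (SE 0.12, edgeR adjusted p = 0.0134). For these 7 the T4 term was not called, with GMNN at -0.22 (edgeR adjusted p = 0.235) and TYMS at -0.17 (edgeR adjusted p = 0.3). The ORC1 term with T3, at -0.41 (edgeR adjusted p = 0.0432), was lost in 13 of 16 alternatives, including RLE size factors, DESeq2, no filter on low counts, the replicate block, limma on both log2 FPKM scales and every library left out other than the first T3 library of day 19 (adjusted p up to 0.286). POLA2, at -0.34 (edgeR adjusted p = 0.0296), was lost in 8 of 16, including RLE size factors, DESeq2 and both limma scales (adjusted p up to 0.252). The E2F1 term was lost with DESeq2 and without the first T3 library of day 7, and the RRM2 and ORC6 terms were lost with DESeq2, at adjusted p-values of up to 0.164, 0.06 and 0.0501. The LIG1 term with T4 was lost on both limma scales (adjusted p up to 0.0583).

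Further genes of the pathway also rose at day 7. Of 32 further replication and fork factors, 4 rose and 0 fell with T4, beside 3.9% of all tested genes higher and 2.52% lower, and 7 rose and 0 fell with T3, beside 9.43% and 6.54%, with medians of 0.14 and 0.15. WDHD1, a fork protein that links polymerase alpha to the helicase, was at 0.40 (edgeR adjusted p = 0.0036) with T4 and 0.49 (edgeR adjusted p = 0.000287) with T3. In the 12 genes of chromatin assembly at forks, 3 rose with each hormone and 0 fell, among them CHAF1A, a histone chaperone subunit, at 0.36 (edgeR adjusted p = 0.0151) with T4 and 0.44 (edgeR adjusted p = 0.0016) with T3. Of 13 further nucleotide supply genes, 1 rose with T4 and 3 with T3, including SAMHD1, which degrades deoxynucleotides, at 0.86 (edgeR adjusted p = 0.000542) with T4 and 1.07 (edgeR adjusted p = 2.24e-05) with T3. CAD, which starts pyrimidine synthesis, was at 0.28 (edgeR adjusted p = 0.0874) with T4 and 0.43 (edgeR adjusted p = 0.00559) with T3. At day 19 SAMHD1 fell instead, at -0.99 (edgeR adjusted p = 3.2e-06) with T4 and -1.60 (edgeR adjusted p = 2.01e-08) with T3. DNMT1, the maintenance DNA methyltransferase of the fork, rose on each day, at 0.52 (edgeR adjusted p = 0.000128) with T4 and 0.66 (edgeR adjusted p = 9.48e-06) with T3 at day 19 and at 0.32 (edgeR adjusted p = 0.0319) with T4 and 0.35 (edgeR adjusted p = 0.00897) with T3 at day 7.

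At day 19, 8 of the 32 fork factors rose and 1 fell with T4, and 5 rose and 4 fell with T3. All tested genes were at 21% higher and 21.9% lower with T4 and at 25.1% higher and 27.3% lower with T3, shares against which the day 19 counts of this and the following lists are to be read, and those of the fork factors were near or below them. TOP1, the topoisomerase that relaxes DNA ahead of the fork, rose by 0.52 (edgeR adjusted p = 2.41e-05) with T4 and 0.86 (edgeR adjusted p = 7.66e-08) with T3. RPA1, the largest subunit of the protein that coats exposed strands, rose by 0.45 (edgeR adjusted p = 2.34e-05) with T4 and 0.41 (edgeR adjusted p = 4.32e-05) with T3. CHTF18, part of an alternative clamp loader, rose by 0.59 (edgeR adjusted p = 0.000148) with T4 and 0.46 (edgeR adjusted p = 0.00108) with T3. TOP2A, a topoisomerase of dividing cells, had 56.3 and 53.4 CPM with T4, 39.4 and 40.7 CPM with T3 and 76.1 and 60.8 CPM with DMSO. All hormone libraries lay below DMSO, at -0.32 (edgeR adjusted p = 0.00605) with T4 and -0.77 (edgeR adjusted p = 2.48e-06) with T3. Of 12 chromatin assembly genes, 9 rose and 0 fell with T4, and 7 rose and 1 fell with T3, with SSRP1, a subunit of the histone chaperone FACT, at 0.32 (edgeR adjusted p = 0.000491) with T4 and 0.32 (edgeR adjusted p = 0.000353) with T3. In the 13 genes of replication stress and fork repair, 4 rose and 0 fell with T4, and 2 rose and 2 fell with T3. ATR, the kinase that senses stalled forks, rose by 0.38 (edgeR adjusted p = 0.0117) with T4 and 0.46 (edgeR adjusted p = 0.00246) with T3, and CHEK1, the kinase it activates, fell with T3, at -0.37 (edgeR adjusted p = 0.00657).

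The G1/S cyclins and kinases were also divided at day 19, with 4 of 10 higher and 4 lower after T4 and 4 higher and 6 lower after T3. CDK2, the partner of cyclin E, had 167 and 167 CPM with T4 and 197 and 183 CPM with T3, against 119 and 120.4 CPM with DMSO. It rose without overlap, at 0.48 (edgeR adjusted p = 3.51e-06) with T4 and 0.67 (edgeR adjusted p = 5.99e-08) with T3. CDK4, the partner of the D cyclins, rose by 0.42 (edgeR adjusted p = 0.000127) with T4 and 0.42 (edgeR adjusted p = 8.23e-05) with T3. CCNA2, the cyclin A of S and G2 phase, had 17.6 and 17.6 CPM with T4, 12.6 and 12.4 CPM with T3 and 21.3 and 19.7 CPM with DMSO, and fell, at -0.22 (edgeR adjusted p = 0.0227) with T4 and -0.72 (edgeR adjusted p = 1.95e-06) with T3. The D cyclins differed among themselves. CCND1 was at 133 and 125 CPM with T4, 149.9 and 161 CPM with T3 and 89.3 and 89.8 CPM with DMSO, and rose, at 0.53 (edgeR adjusted p = 2.82e-06) with T4 and 0.79 (edgeR adjusted p = 1.9e-08) with T3. CCND3 also rose, at 0.82 (edgeR adjusted p = 3.99e-07) with T4 and 0.94 (edgeR adjusted p = 4.69e-08) with T3, whereas CCND2 fell, at -0.25 (edgeR adjusted p = 0.0147) with T4 and -0.56 (edgeR adjusted p = 1.89e-05) with T3. CDC25A, a phosphatase that activates CDK2, fell with T3, at -0.40 (edgeR adjusted p = 0.00253), and was not called with T4, at -0.10 (edgeR adjusted p = 0.428).

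Of 7 CDK inhibitor genes, 3 rose and 1 fell with each hormone at day 19. CDKN1A, which encodes the CDK inhibitor p21, was far more abundant at day 19 than at day 7. It had 1345 and 1216 CPM with T4, 1499.8 and 1461 CPM with T3 and 609 and 651 CPM with DMSO at day 19, against 16.6 and 15.5 CPM with T4, 22.005 and 22.2 CPM with T3 and 11.03 and 11.98 CPM with DMSO at day 7. In DMSO the day 19 level was 54.8-fold that of day 7 (log2 fold change 5.77, SE 0.0809, edgeR adjusted p = 6.88e-16). Hormone raised it on each day, by 1.02 (edgeR adjusted p = 6.25e-09) with T4 and 1.23 (edgeR adjusted p = 4.12e-10) with T3 at day 19, and by 0.48 (edgeR adjusted p = 0.00606) with T4 and 0.94 (edgeR adjusted p = 7.09e-06) with T3 at day 7. CDKN1C, which encodes the inhibitor p57, was higher at day 19 than at day 7 in DMSO, at 2.01 (edgeR adjusted p = 1.38e-12), and was not called with hormone at day 19. CDKN2C, which encodes the inhibitor p18, fell at day 19, at -1.28 (edgeR adjusted p = 0.00686) with T4 and -1.98 (edgeR adjusted p = 0.000423) with T3, and CDKN2B, which encodes p15, rose, at 0.45 (edgeR adjusted p = 0.000147) with T4 and 0.66 (edgeR adjusted p = 2.29e-06) with T3. CDKN1B, which encodes p27, had -0.33 (edgeR adjusted p = 0.000583) between the days in DMSO. CDKN2A was listed at 0.363 to 0.898 CPM at day 19 and 0.0978 to 0.245 CPM at day 7.

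**Figure D5:**
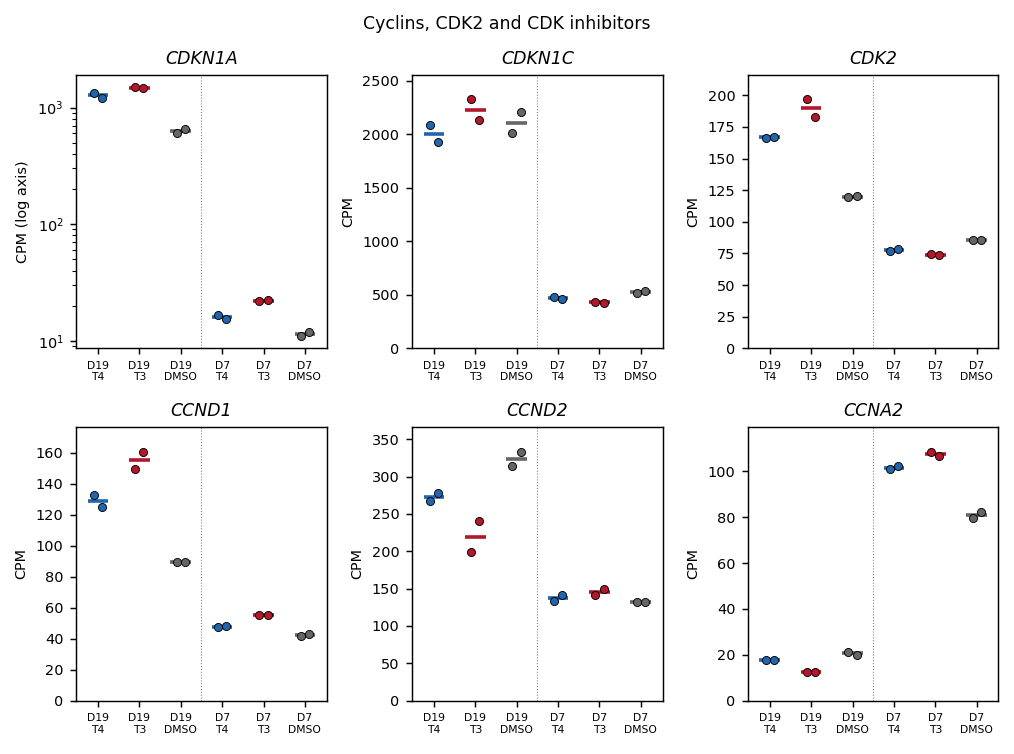
CPM of 6 regulators of S phase entry in each library (points), with the group mean as a bar, for the T4, T3 and DMSO groups of day 19 on the left and of day 7 on the right of each panel. The axis of CDKN1A is logarithmic, and on it its day 19 libraries lie at 609 CPM or more and its day 7 libraries at 22.2 CPM or less.

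In the E2F and RB family of 14 further genes, 3 rose and 0 fell with T4 at day 7, and 2 rose and 0 fell with T3. Of all tested genes at day 7, 3.9% rose and 2.52% fell with T4, and 9.43% rose and 6.54% fell with T3. At day 19, 4 rose and 3 fell with T4, and 2 rose and 4 fell with T3. E2F4, an E2F that acts mainly as a repressor, rose at day 19, at 0.73 (edgeR adjusted p = 8.3e-07) with T4 and 0.91 (edgeR adjusted p = 4.54e-08) with T3. E2F7, an E2F that represses, rose with T4 on each day, at 0.44 (edgeR adjusted p = 0.0166) at day 19 and 0.40 (edgeR adjusted p = 0.0391) at day 7, and was not called with T3. RB1, which encodes the retinoblastoma protein, had 25.7 and 26.5 CPM with T4, 22.7 and 25.3 CPM with T3 and 35.01 and 30.97 CPM with DMSO at day 19, and fell, at -0.34 (edgeR adjusted p = 0.0102) with T4 and -0.46 (edgeR adjusted p = 0.00101) with T3. MYBL2, a factor of S phase and mitotic genes, rose at day 7, at 0.26 (edgeR adjusted p = 0.0208) with T4 and 0.40 (edgeR adjusted p = 0.000507) with T3, and fell at day 19, at -0.56 (edgeR adjusted p = 8.32e-06) with T4 and -1.05 (edgeR adjusted p = 8.79e-09) with T3. RBL1, E2F3 and E2F8 were not called with either hormone on either day.

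Of 10 mitotic genes, which act after S phase, 2 rose and 2 fell with T4 at day 19 and 1 rose and 7 fell with T3. Of all tested genes, 27.3% were lower with T3 at day 19. At day 7, 6 of the 10 rose with T4, 8 rose with T3 and 0 fell. All tested genes at day 7 were at 3.9% higher and 2.52% lower with T4 and at 9.43% higher and 6.54% lower with T3. MKI67, a marker of dividing cells, had 22.4 and 28.5 CPM with T4, 20.8 and 19.6 CPM with T3 and 34.5 and 24.4 CPM with DMSO at day 19. The T4 group overlapped DMSO and the T3 group lay below it, at -0.21 (edgeR adjusted p = 0.235) for T4 and -0.54 (edgeR adjusted p = 0.00427) for T3. CCNB1, the cyclin of mitotic entry, did the reverse, with 38.1 and 37.6 CPM with T4 and 50.4 and 41.01 CPM with T3 against 27.4 and 26.6 CPM with DMSO, and rose by 0.49 (edgeR adjusted p = 0.000342) with T4 and 0.76 (edgeR adjusted p = 2.84e-06) with T3.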

How the data were processed

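Bulk RNA-seq was analysed in 12 libraries, 2 for each of 6 groups. The authors deposited expected counts per transcript, which RSEM estimates and which need not be whole, and FPKM values. Per the submitters' processing notes, HISAT, Bowtie2 and RSEM were used with the hg38 build, and their versions are not given in the sources used here. Whether counting used strand is likewise not given. Expected counts were summed per Entrez gene and rounded to whole numbers for 23922 genes, of which 121 had no symbol (0.103% to 0.145% of counts). Depth was 18363549 to 19306181 counts per library, and intervals use a spread estimated over all 6 groups of 2 libraries together.

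One fit in edgeR 4.0.16 (R 4.3.3) held 6 group means over 12 libraries, with TMM scaling, filterByExpr (18101 genes kept), the quasi-likelihood F test and Benjamini-Hochberg adjustment over all tested genes, with calls at an adjusted p of at most 0.05. The SE is the size of the log2 fold change over the square root of F. Alternatives used RLE size factors, DESeq2 1.42.0, other filters, a replicate block, limma 3.58.1 on log2(FPKM + 1) and log2(FPKM + 0.1) from the deposited FPKM, fits of the libraries compared only, fits without the 10 most abundant genes and fits without each library. Of 200 genes changed in simulated counts for T3 against DMSO at day 7, 180 were recovered (90%) over 17210 genes, with 1 false call. That share pools all simulated sizes of change, some of them larger than any day 7 hormone change of the 39 genes. The changed genes were picked from those with higher counts. Recovery at the median T3 change of the 39 replication genes at day 7, 0.35, was not tested. Promoters came from RefSeq on GRCh38.p14, and figures from matplotlib 3.10.9.

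The members and all gene lists were chosen with earlier results of these data known. Every member is accounted for. Those given in full are, for each comparison, the 3 called genes at either end of the fold changes, plus MCM2, PCNA, CDC6, CDT1, GMNN, RRM2, TYMS, TK1, CCNE1, CCNE2, E2F1 and E2F2. From other lists the counts are given, with named cyclins, kinases, inhibitors and RB and E2F genes and genes with the smallest p of a list. Cholangiocyte markers (1 of 4 higher with each hormone at day 7) and neural markers (1 of 3 higher) were examined too, and none of 3 blood markers passed the filter.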

Additional observations from a re-analysis of the deposited data

Results flagged for a closer look

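These genes drew a second look because their hormone effect differed between the days in a test of the difference itself, the effect at day 19 minus that at day 7 on the log2 scale in edgeR's quasi-likelihood fit. No group had enough libraries for a test of single libraries that stand apart. Of all tested genes, 12.4% had a higher and 15.3% a lower T4 effect at day 19, and 17.1% had a higher and 20.9% a lower T3 effect. Among the 39 replication genes, T4 gave 4 with a higher effect at day 19, CCNE1 (1.06), CDC6 (0.54), MCM7 (0.53) and PCNA (0.52). A lower T4 effect at day 19 was found for MCM6 (-0.53), POLD1 (-0.52) and LIG1 (-0.40). T3 gave a higher effect at day 19 for CCNE1 (1.56), MCM7 (0.60), CDC6 (0.43) and PCNA (0.31). Neither the T4 counts nor this T3 count was above the share of all genes. For 14 genes the T3 effect was lower at day 19, and these were POLD1 (-0.84), GINS2 (-0.81), GMNN (-0.79), MCM6 (-0.73), LIG1 (-0.66), GINS1 (-0.58), TK1 (-0.58), TYMS (-0.58), CDT1 (-0.50), ORC6 (-0.44), E2F1 (-0.42), ORC1 (-0.41), RRM2 (-0.38) and POLA2 (-0.34). 

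Of 19 further genes examined for this difference, regulators of S phase entry and markers of dividing cells, 9 differed for T4 and 13 for T3, where 27.7% of all tested genes differed for T4 and 38% for T3. The T4 effect was higher at day 19 for CCND3 (0.88), CDK2 (0.62), CDKN1A (0.54), CDK4 (0.37) and CCND1 (0.35). It was lower for CCNA2 (-0.55), TOP2A (-0.52), RB1 (-0.42) and CDC25A (-0.38). The T3 effect was higher at day 19 for CDK2 (0.88), CCND3 (0.86), CCNB1 (0.46), CCND1 (0.41), CDK4 (0.39), CDKN1C (0.38) and CDKN1A (0.29). It was lower for CCNA2 (-1.13), TOP2A (-0.97), MKI67 (-0.88), CDC25A (-0.82), CCND2 (-0.70) and RB1 (-0.54). The hepatocyte and mesenchymal markers that moved with hormone at day 19, and the pluripotent cell markers that moved with it at day 7, were measured in the same libraries, and their part in these differences was not tested.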

How the results depend on the processing

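With only 2 libraries a group, small changes sat near the threshold. The spread of a gene was estimated over all 6 groups together, although the libraries of a group scattered more at day 19. The chi-square of the 2 libraries of a group, averaged over genes, was 4.96 with T4, 8.63 with T3 and 7.06 in DMSO at day 19. At day 7 it was 1.62, 2.10 and 1.58. Standard errors can thus be too small at day 19 and too large at day 7. With T4 at day 7, the 18 called replication genes became 9 with DESeq2, 11 with limma on log2(FPKM + 0.1) and 4 to 6 without a library. With T3 at day 7, 27 became 18 to 21 without a library. Between T4 and T3 at day 19, the 8 became 3 with RLE size factors, 1 with DESeq2 and 1 in the fit of day 19 alone. Several of the 8 calls were lost without a library, and some of these fits called other replication genes. Between T4 and T3 at day 7, the fit of that day alone called 2 in place of 0. Against DMSO, the fit of day 7 alone called 27 replication genes with T4 in place of 18, and 33 with T3 in place of 27. DESeq2 called 20 with T3 at day 7. Over all genes, T4 at day 7 had 1162 calls, which became 755 with DESeq2, 3460 in the fit of day 7 alone and 371 to 393 without a library. T3 at day 7 had 2891, which became 1807 with DESeq2, 5328 in the fit of day 7 alone and 1308 to 1461 without a library. T4 against T3 had 66 calls at day 7, which became 34 with limma on log2(FPKM + 0.1), 435 in the fit of that day alone and 19 to 26 without a library, and 2848 at day 19, which became 1478 in the fit of day 19 alone and 1510 to 3322 without a library. POLD1, between the days in DMSO, turned to -0.28 with limma on log2(FPKM + 1) and to -0.29 on log2(FPKM + 0.1), where the median of all genes was -0.24 and -0.38.

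Called under every alternative were 35 of 37 replication genes between the days in DMSO, 37 of 37 with T3 and 36 of 38 with T4, against 11 of 17 with T4 and 10 of 14 with T3 at day 19. Replicate differences correlated most at day 19, at 0.36 between DMSO and T3 and at -0.37 between DMSO and T4. The remaining pairs of groups lay between -0.06 and 0.15. The replicate numbers thus gave no pairing that held over all groups, and whether libraries were handled in pairs is not given. With the replicate block, replication genes called numbered 18 for T4 and 26 for T3 at day 7, 17 for T4 and 14 for T3 at day 19, 6 between T4 and T3 at day 19, and 7 and 17 for the T4 and T3 differences between the days. With the numbers crossed between T4 and DMSO at day 19, a fit added after the data were seen, 17 replication genes and 8021 of all genes were called. The main fit called 17 and 7753. Depth limits what can be seen of CCNE2, which had 26 to 93 counts per library.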
